A study of Mus musculus with 17 samples.

Results

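The genes described here are 35 markers of cells other than alveolar epithelial type 2 (AT2) cells: immune, endothelial and mesenchymal lineage markers, measured in RNA from sorted AT2 cells. They are given as a list of symbols with no threshold on a measured value, a list drawn up with earlier results of these data known, and each symbol was matched to the mouse gene IDs of both count tables. All 35 were found among 43430 gene IDs. They comprise 13 macrophage and pan-leukocyte genes, 11 endothelial genes, 6 mesenchymal genes and 5 lymphocyte genes.

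The study sequenced RNA from AT2 cells of C57BL/6J mice aged 2 months, isolated by flow cytometry, in 17 libraries. The first experiment has 4 libraries from naive mice 24 h after vehicle and 4 from naive mice 24 h after ISRIB, a compound that restores protein synthesis when the integrated stress response has lowered it. These 8 libraries were made from 3 ng of RNA after poly(A) enrichment. The second experiment has 4 libraries of naive mice and 5 of mice given bleomycin 14 days earlier, a drug used to bring about lung injury and fibrosis, made from 0.35 ng of RNA with a total-RNA kit. All 9 of these carry vehicle as their treatment label and saline in their titles. The labels give no dose, no sex and no gate of the sort, and they do not say whether the libraries of a group came from separate mice. P-values therefore measure the spread between these libraries, which may be technical in part. The experiments used different kits, so every comparison was made within its own kit.

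A marker gene of a lineage is one that cells of that lineage transcribe far more than the surrounding cell types do. Alveolar macrophages lie in the airspace against AT2 cells, capillary endothelial cells lie across a thin basement membrane from them, and lipid-storing and contractile fibroblasts lie in the alveolar wall. A sort for epithelial cells can carry along such neighbours or their free RNA. Some markers are also transcribed by AT2 cells themselves, the lysozymes among them.

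Library totals were 10493574 to 15727139 counts with poly(A) enrichment and 3295257 to 6333166 with the total-RNA kit. Sftpc, the surfactant protein C gene that defines AT2 cells, took 10.02% to 11.02% of all counts with poly(A) enrichment and 1.88% to 3.93% with the total-RNA kit, the lowest share being that of bleomycin 1. Ribosomal-RNA-like genes took 0.314% to 0.459% and 15.7% to 29.2%. Within groups, the libraries labelled ISRIB 2 and ISRIB 4 resembled each other (chi-square per degree of freedom 4.38), as did ISRIB 1 and ISRIB 3 (3.50), and the other ISRIB pairs gave 7.80 to 8.94. Among bleomycin libraries this measure ran from 7.34, between 3 and 5, to 46.2, between 1 and 5. All pairs differed by more than counting noise, so each library was kept as 1 replicate.

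Each gene's level is given in CPM, its raw count scaled to the total count of the library. A lineage sum adds the CPM of all genes of that lineage. In every one of the 17 libraries the order of the sums was macrophage, endothelial, mesenchymal, lymphocyte, and a single gene supplied most of the first of these: Lyz1 made up 95.5% to 99.8% of the macrophage sum. Esam made up 49.7% to 75.4% of the endothelial sum. Levels between genes were compared only after division by exon length, in CPM per kilobase. On that scale Lyz1 averaged 1674 in the vehicle group and Esam 45.3, while every other marker was at or below 3.59. In a bulk library, fewer cells of a type and less RNA per cell of that type cannot be told apart.

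**Figure D1:**
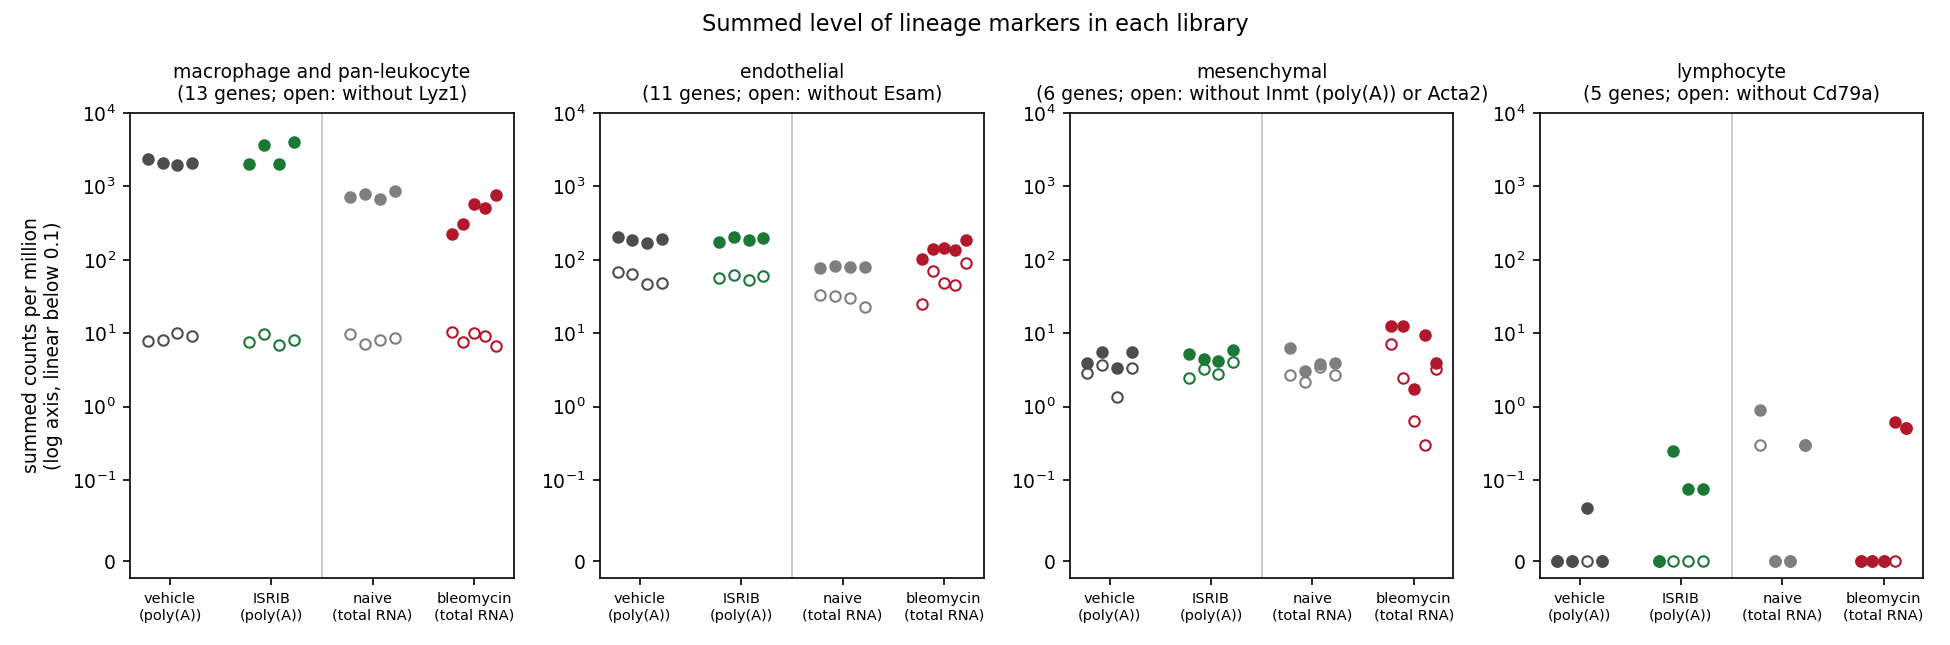
Summed CPM of the 4 marker lists in each library (log axis, linear below 0.1), 1 point per library by group. Filled points are all genes of a list and open points leave out the gene with most counts. The macrophage sum falls from over 200 CPM to at most 10.3 CPM in every library once Lyz1 is left out, and the endothelial sums of all 5 bleomycin libraries lie above those of the 4 naive libraries.

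**Figure D2:**
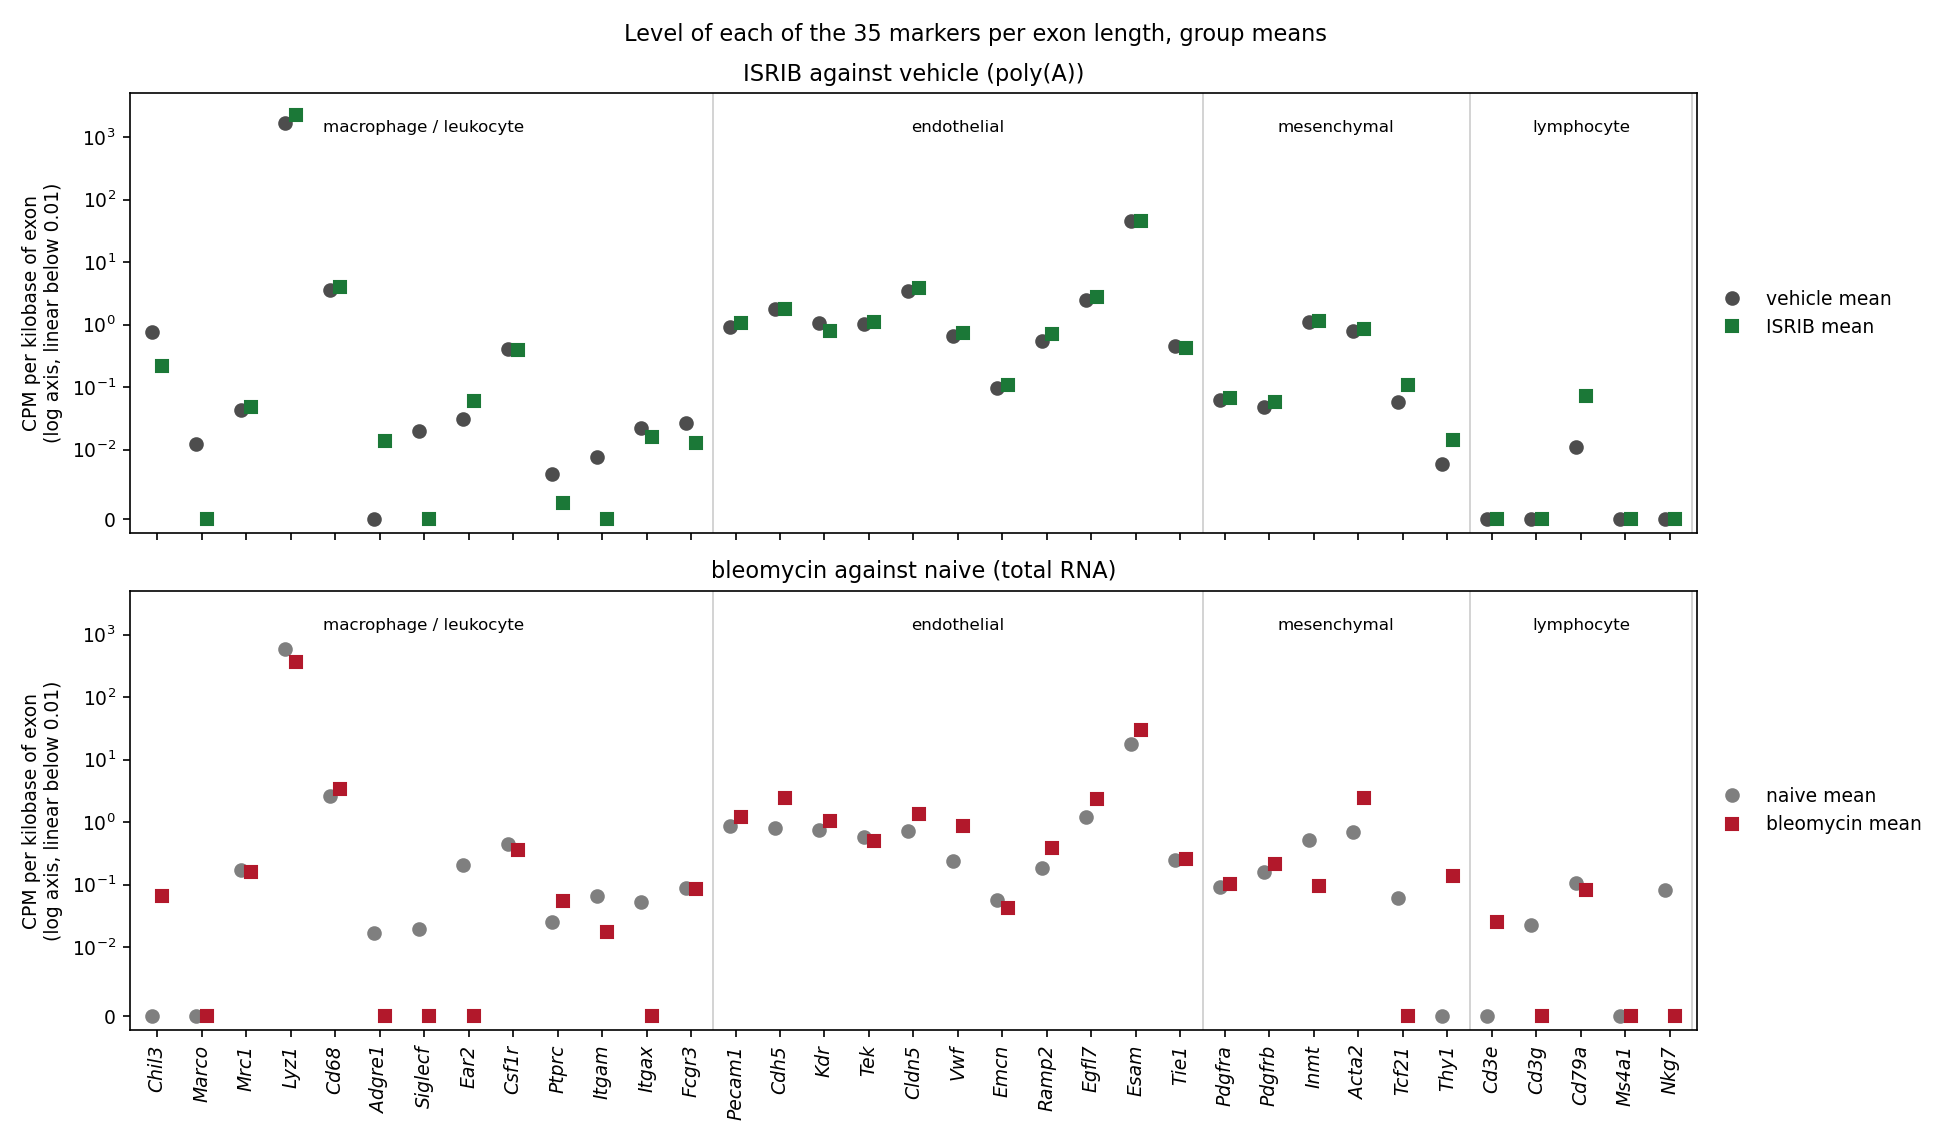
Group mean of each marker in CPM per kilobase of exon (log axis, linear below 0.01), with ISRIB against vehicle above and bleomycin against naive below. Lyz1 and Esam stand above the other markers in all 4 groups, and most macrophage surface markers and all lymphocyte markers lie near the bottom of the scale.

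Low counts limited which markers could be tested. A gene entered the test if enough libraries passed a count filter that corresponds to 0.883 CPM with poly(A) enrichment and 2.57 CPM with the total-RNA kit. In the ISRIB comparison 16 of the 35 markers were tested, 4 had no count in any library and 14 had at most 10 counts over all 8 libraries. In the bleomycin comparison 11 were tested, 2 had no count and 15 had at most 10 counts. Chil3 passed the filter through the vehicle group alone, and Acta2 passed with 1 naive and 3 bleomycin libraries over it, so counts over the tested markers carry that selection.

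After ISRIB no tested marker was called higher and 1 was called lower, Chil3, at an adjusted p under 0.05 in edgeR's quasi-likelihood test. That is 6.25% of the 16 tested markers, beside 2.2% of the 12054 genes tested that were called (1.1% higher and 1.1% lower). Groups did not overlap for the same 1 marker, beside 8.65% of all genes tested. The median log2 fold change of the tested markers was 0.06, beside -0.00014 over all genes tested. Unadjusted p was under 0.05 for 3 of the 16, Chil3, Lyz1 and Kdr. DESeq2 gave no adjusted p for Chil3 and called none of the markers for which it gave one. The call of Chil3 was lost when any library but ISRIB 3 was left out, as given with its values below.

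After bleomycin 3 tested markers were called higher, Cdh5, Vwf and Esam, and 1 was called lower, Lyz1. That is 36.4% of the 11 tested markers, beside 20.5% of the 11223 genes tested (11.2% higher and 9.31% lower). Groups did not overlap for 2 markers, Cdh5 and Esam, beside 19.7% of all genes tested. The median log2 fold change was 0.43, beside 0.0026 over all genes tested, and 6 of the 11 had an unadjusted p under 0.05. All 3 rises were endothelial, and the count of 4 calls became 2 without naive 4.

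**Figure D3:**
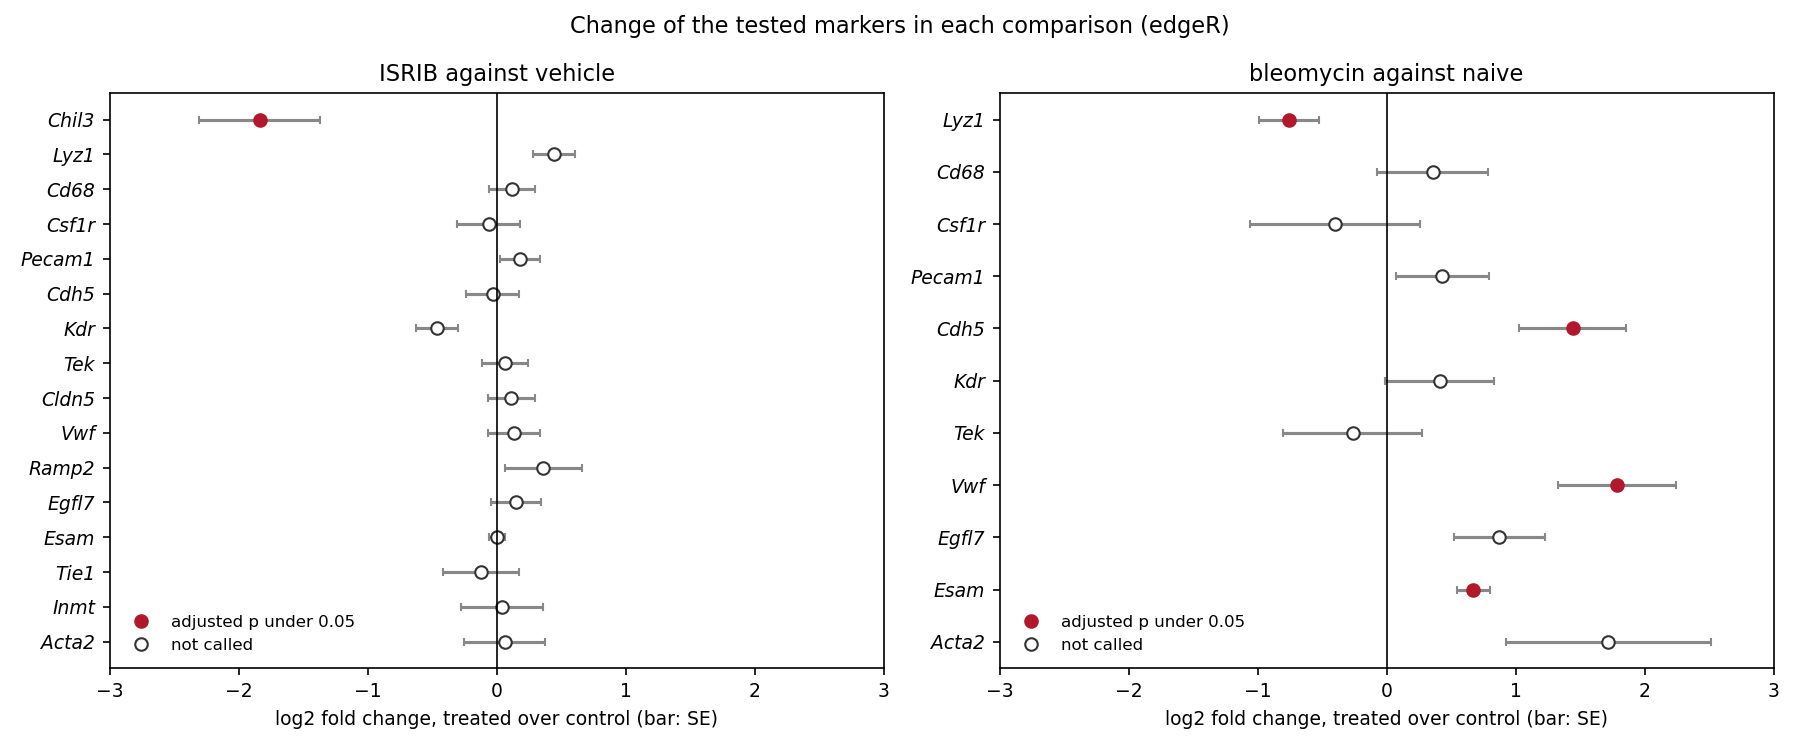
Log2 fold change of each tested marker (treated over control, bar 1 SE) in the ISRIB comparison (16 markers) and the bleomycin comparison (11 markers). Filled points passed an adjusted p of 0.05 in edgeR: Chil3 at -1.84 after ISRIB, and Lyz1 at -0.75, Cdh5 at 1.44, Vwf at 1.78 and Esam at 0.67 after bleomycin.

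The 5 lymphocyte markers were at or near 0 throughout. Cd3e and Cd3g, subunits of the T cell receptor complex, Ms4a1, the CD20 antigen of B cells, and Nkg7, a granule protein of natural killer and cytotoxic T cells, had no count among the 98885335 counts of the 8 poly(A) libraries. A count of 0 in that total allows up to 0.0303 CPM (3 counts, counting error only). Cd79a, a subunit of the B cell receptor, had 6 counts there, 5 of them in ISRIB libraries. The total-RNA set held 9 lymphocyte counts among 39486764, of which Cd79a had 4, Cd3e 3, Cd3g 1 and Nkg7 1. Ms4a1 had none, which allows up to 0.0760 CPM. The 3 Cd3e counts all came from bleomycin 5. None of the 5 genes could be tested in either comparison. The wider list of 17 lymphocyte genes held 16 with at most 10 counts in each set. Its other gene, Cd79b, named after its values were seen, averaged 19.8 ± 0.99 CPM in vehicle and 16.6 ± 0.99 CPM in ISRIB libraries. All ISRIB libraries were below all vehicle libraries for Cd79b, but it did not pass the test (adjusted p 0.112, edgeR). It averaged 4.98 ± 2.90 CPM in naive and 6.08 ± 2.85 CPM in bleomycin libraries (adjusted p 0.817).

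Most surface markers of macrophages and leukocytes were also near the limit of detection. Marco, a scavenger receptor of alveolar macrophages, had 1 count over the poly(A) libraries and 0 over the total-RNA libraries. Adgre1, which encodes the F4/80 antigen, had 2 and 1 counts. Siglecf, a sialic-acid-binding lectin of alveolar macrophages and eosinophils, had 3 and 1. Itgam and Itgax, the alpha chains CD11b and CD11c of leukocyte integrins, had 2 and 10 poly(A) counts and 7 and 4 total-RNA counts. These 5 genes mark resident or recruited macrophages, and none of them reached 1 CPM in any library. Ptprc, the CD45 phosphatase carried by all nucleated blood cells, had 8 and 30 counts, 23 of the latter in bleomycin libraries. Mrc1, the mannose receptor, had 31 and 39 counts. Ear2, an eosinophil-associated ribonuclease, had 3 and 2, and Fcgr3, a low-affinity receptor for immunoglobulin G, had 3 and 6. Ear2 shares 26.0% of its 50-base windows with Ear10 and Fcgr3 shares 9.58% with Fcgr2b, so a few reads of these genes could be assigned to either.

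Cd68 and Csf1r were the only macrophage markers besides Lyz1 and Chil3 to be tested in either comparison. Cd68, a lysosomal membrane glycoprotein abundant in macrophages, averaged 4.51 ± 0.60 CPM (SD, n = 4) in vehicle and 4.98 ± 0.98 CPM (n = 4) in ISRIB libraries. It averaged 3.24 ± 0.23 CPM (n = 4) in naive and 4.33 ± 1.75 CPM (n = 5) in bleomycin libraries. Csf1r, the receptor for the macrophage growth factor CSF1, averaged 2.32 ± 0.31 CPM in vehicle and 2.24 ± 0.55 CPM in ISRIB libraries. Its total-RNA levels were 2.62 ± 1.34 CPM in naive and 2.06 ± 1.40 CPM in bleomycin libraries. Groups overlapped for both genes in both comparisons, with adjusted p from 0.610 to 0.942 in edgeR. An exon of Csf1r overlaps the gene Hmgxb3 on the opposite strand, and no source used here gives the strand setting of the counting, so reads from the pair may be mixed. The macrophage sum without Lyz1 was 8.75 ± 1.00 CPM in vehicle and 8.10 ± 1.16 CPM in ISRIB libraries (n = 4 each). It was 8.40 ± 1.09 CPM in naive (n = 4) and 8.75 ± 1.56 CPM in bleomycin libraries (n = 5), so in both comparisons the group means differed by less than the spread between libraries.

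Lyz1 encodes lysozyme, an enzyme that cuts bacterial cell walls, and lies beside its near copy Lyz2 on the minus strand of chromosome 10. Lyz2 is transcribed both by macrophages and by AT2 cells, which secrete lysozyme into the alveolar fluid. Lyz1 is annotated at chr10:117287797-117292868 and Lyz2 at chr10:117277331-117282321 (GRCm38, GENCODE M21), 5475 bases apart. The coding sequences each hold 447 bases, 22 of which differ (95.1% identical, longest identical run 118 bases). Their first 250 bases, with 17 of the differing positions in capitals, are shown because so few differences bear on how reads could be divided between the pair.
Lyz1, first 250 coding bases: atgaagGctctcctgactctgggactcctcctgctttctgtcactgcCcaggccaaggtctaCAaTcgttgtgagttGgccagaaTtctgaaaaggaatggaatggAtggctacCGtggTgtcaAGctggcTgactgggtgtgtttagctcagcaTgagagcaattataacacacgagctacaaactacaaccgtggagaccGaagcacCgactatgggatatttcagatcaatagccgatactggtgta
Lyz2, first 250 coding bases: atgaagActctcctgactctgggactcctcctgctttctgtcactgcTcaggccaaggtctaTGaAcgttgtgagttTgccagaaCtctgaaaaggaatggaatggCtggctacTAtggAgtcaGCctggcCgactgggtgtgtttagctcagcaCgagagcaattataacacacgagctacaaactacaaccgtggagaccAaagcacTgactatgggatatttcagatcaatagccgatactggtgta
Over whole transcripts, 195 of the 1214 windows of 50 bases in Lyz1 (16.1%) also occur in Lyz2. A read that lies wholly within such a window fits both genes.

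In vehicle libraries 1 to 4, Lyz1 stood at 2351, 2102, 1955 and 2051 CPM. In ISRIB libraries 1 to 4 it stood at 2009, 3649, 2009 and 3974 CPM. ISRIB 2 and ISRIB 4 were above every vehicle library, while ISRIB 1 and ISRIB 3 lay within the vehicle range. The log2 fold change was 0.44 (SE 0.16) and did not pass the test (adjusted p 0.186, edgeR). Lyz2 too was highest in ISRIB 2 (39953 CPM) and ISRIB 4 (38672 CPM), beside 33515 to 36568 CPM in vehicle libraries, and its log2 fold change was 0.08 (adjusted p 0.552). Lyz1 counts as a percentage of Lyz2 counts were 5.61% to 6.70% in vehicle libraries. The same ratio was 5.71% and 5.79% in ISRIB 1 and ISRIB 3 and 9.13% and 10.3% in ISRIB 2 and ISRIB 4, so in those 2 libraries Lyz1 was higher relative to its neighbour also. Of the other macrophage and leukocyte markers, Cd68 had 219 counts in vehicle and 249 in ISRIB libraries, Csf1r 114 and 116, and Mrc1 15 and 16. Itgax had 6 and 4, Ptprc 6 and 2, Ear2 1 and 2, and Fcgr3 2 and 1. Marco, Siglecf and Itgam had 1, 3 and 2 counts in vehicle and none in ISRIB libraries. Adgre1 had 0 and 2, both in ISRIB 4. Counts of a few reads are too low to show a difference between the groups.

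The wider list of 14 alveolar macrophage genes summed to 23.4, 25.8, 20.9 and 23.1 CPM in vehicle libraries 1 to 4 and to 26.5, 35.5, 25.0 and 35.5 CPM in ISRIB libraries 1 to 4, highest in ISRIB 2 and ISRIB 4. Most of that sum was Plet1, at 12.5, 14.7, 11.8 and 12.4 CPM in vehicle and at 14.4, 22.1, 12.7 and 24.1 CPM in ISRIB libraries. Plet1, named after its values were seen, was thus high in the same 2 libraries as Lyz1, with a log2 fold change of 0.49 that did not pass the test (adjusted p 0.139, edgeR; 0.00102 with no count filter and 0.0480 without ISRIB 3). Without Plet1 the sum was 9.04 to 11.1 CPM in vehicle and 11.4 to 13.4 CPM in ISRIB libraries, and the groups did not overlap. Most of this remainder was Pparg (mean 3.46 CPM in vehicle, 4.52 CPM in ISRIB libraries) and Mertk (4.11 and 4.88 CPM). Groups overlapped for both genes, and neither passed the test (adjusted p 0.347 and 0.558, edgeR). Of the 5 tested genes of the list, 4 had a log2 fold change above 0 and 1 below, and none was called. The list had 3 genes without a count in any of the 8 libraries and 6 with at most 10 counts. The part of macrophage RNA in the Lyz1 values was not tested.

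In naive libraries 1 to 4, Lyz1 stood at 713, 772, 656 and 845 CPM. In bleomycin libraries 1 to 5 it stood at 217, 301, 563, 496 and 757 CPM. Bleomycin 1 to 4 were below every naive library and bleomycin 5 lay within the naive range. Lyz1 fell by 0.75 on the log2 scale (SE 0.23, adjusted p 0.0277, edgeR; lower than the naive mean in 4 of 5 libraries). The call was lost without naive 1 (adjusted p 0.0637), naive 2 (0.0597), naive 4 (0.0832) or bleomycin 2 (0.0569). Lyz2 averaged 11682 ± 843 CPM in naive (n = 4) and 9220 ± 4060 CPM in bleomycin libraries (n = 5), a log2 difference of -0.42 that did not pass the test (adjusted p 0.230). It was lowest in bleomycin 1 and bleomycin 2, at 4487 and 5863 CPM, which also had the lowest Lyz1 and the lowest shares of Sftpc, 1.88% and 2.43%. The part of these AT2 transcripts in the Lyz1 result was not tested. The Lyz1 to Lyz2 ratio was 6.43 ± 0.97% in naive and 5.07 ± 0.67% in bleomycin libraries, with overlapping groups.

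**Figure D4:**
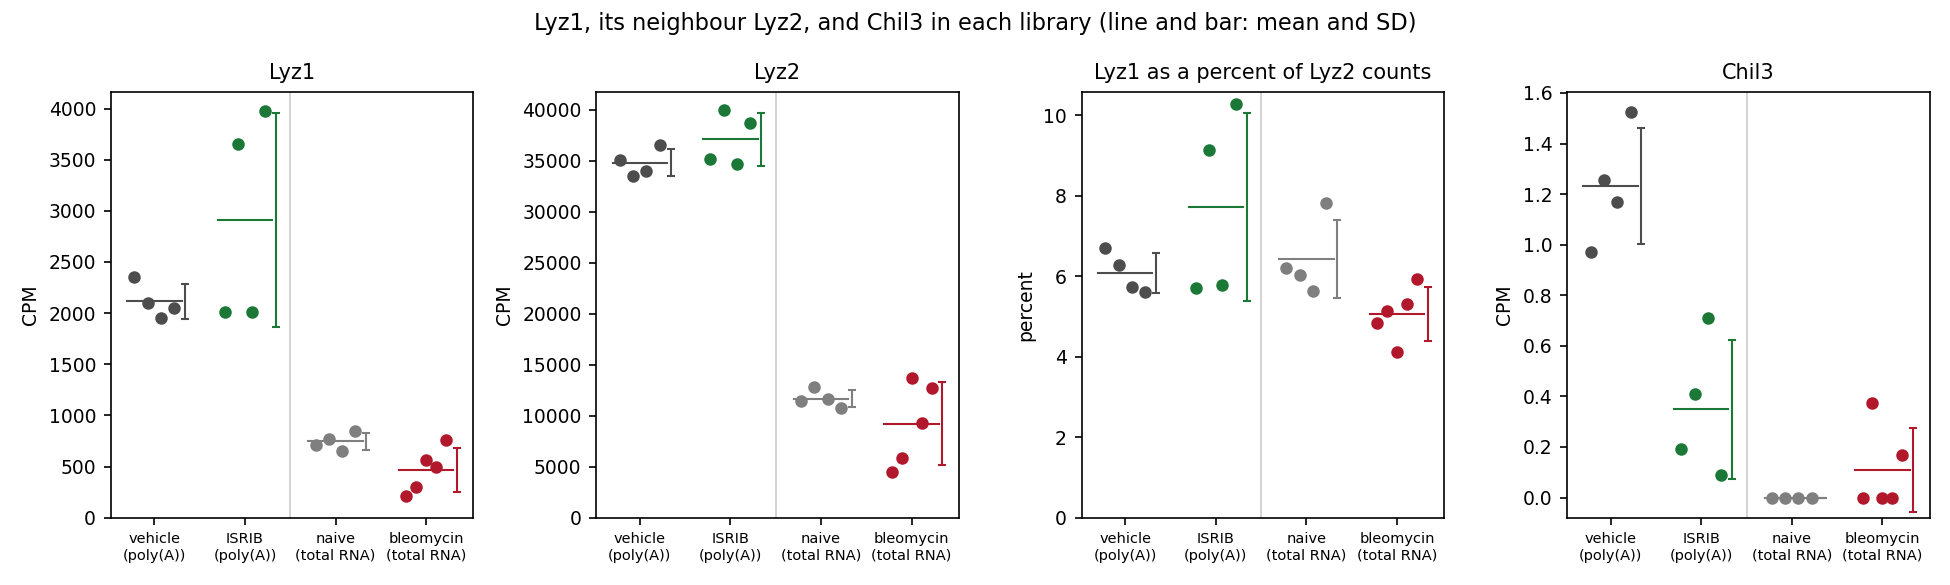
Lyz1, Lyz2, the Lyz1 count as a percentage of the Lyz2 count, and Chil3 in each library (points), with group mean and SD (line and bar). The ISRIB group splits for Lyz1 and for the ratio, with ISRIB 2 and ISRIB 4 high, and Chil3 is at 0 in all naive libraries.

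The region before each lysozyme gene is shown because both are transcribed in these cells and share a short match to the binding sequence of ETS factors, the family that includes the myeloid regulator PU.1. The 200 bases from 250 to 51 before the RefSeq start (GRCm38.p6) are chr10:117292919-117293118 for Lyz1 and chr10:117282323-117282522 for Lyz2, minus strand, with the match in capitals (ACTTCCTG, the reverse complement of CAGGAAGT).
Lyz1 upstream: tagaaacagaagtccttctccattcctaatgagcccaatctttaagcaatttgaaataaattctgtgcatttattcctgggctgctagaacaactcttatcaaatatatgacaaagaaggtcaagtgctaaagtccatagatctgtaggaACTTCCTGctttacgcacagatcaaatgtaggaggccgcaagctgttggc
Lyz2 upstream: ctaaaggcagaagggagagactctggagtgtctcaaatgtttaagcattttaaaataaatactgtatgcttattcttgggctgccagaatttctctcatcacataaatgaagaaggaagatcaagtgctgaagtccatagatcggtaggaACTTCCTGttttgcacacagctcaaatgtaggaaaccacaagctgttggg
RefSeq holds a promoter of 250 bases before to 50 bases after the start for 25 of the 35 markers. On either strand, CAGGAAGT occurs in 6 of these, those of Lyz1, Mrc1, Ptprc, Egfl7, Cd3e and Cd79a, beside 3.33% of 32851 promoters. GAGGAAGT and CCGGAAGT, which differ from it near one end, occur in none of the 25, beside 3.2% and 3.89% of all promoters. A marker was counted if any of its RefSeq promoters held the match, while the percentages are over single promoters, so their units differ. A match describes these letters and not a bound site.

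Chil3 encodes a chitinase-like protein, also called Ym1, that alveolar macrophages secrete, and is annotated at chr3:106147554-106167564 (GRCm38, minus strand). In vehicle libraries 1 to 4 it stood at 0.97, 1.26, 1.17 and 1.52 CPM. In ISRIB libraries 1 to 4 it stood at 0.19, 0.41, 0.71 and 0.088 CPM. Every ISRIB library was below every vehicle library, on 59 counts in all against 17. Chil3 fell by 1.84 on the log2 scale (SE 0.47, adjusted p 0.0440, edgeR; lower in 4 of 4 libraries). It passed the count filter through the vehicle libraries alone, and the adjusted p was 0.0736 to 0.123 when any 1 library other than ISRIB 3 was left out. In the total-RNA set Chil3 had no count in the 4 naive libraries and 3 counts in the bleomycin libraries, and it was not tested.

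Chia1, the acidic chitinase gene next to Chil3, is its relative but shares none of its 1629 windows of 50 bases, whereas Chil4 shares 275 of them. Chia1 averaged 468 ± 57.7 CPM in vehicle and 365 ± 52.9 CPM in ISRIB libraries (n = 4 each; log2 fold change -0.37, adjusted p 0.0431). It averaged 133 ± 19.1 CPM in naive (n = 4) and 65.0 ± 45.9 CPM in bleomycin libraries (n = 5; log2 fold change -1.11, adjusted p 0.0419). With DESeq2 neither call was made (adjusted p 0.115 and 0.158). The first call was lost on leaving out any library but ISRIB 3 (adjusted p 0.0582 to 0.163 without each of the others), and the second on leaving out any but bleomycin 3 or bleomycin 5 (0.0560 to 0.123).

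The endothelial markers were detected in every group, and 10 of 11 could be tested after ISRIB and 7 of 11 after bleomycin. Their sum did not change with ISRIB beyond the spread between libraries and was higher after bleomycin in every library. The sum stood at 202, 188, 167 and 190 CPM in vehicle libraries 1 to 4 and at 175, 202, 186 and 196 CPM in ISRIB libraries 1 to 4. It stood at 77.4, 83.1, 79.1 and 80.8 CPM in naive libraries and at 101, 140, 143, 135 and 183 CPM in bleomycin libraries 1 to 5. The bleomycin mean was 1.75 times the naive mean (141 ± 29.1 against 80.1 ± 2.5 CPM). Without Esam the sums were 29.5 ± 4.8 CPM in naive and 56.2 ± 25.3 CPM in bleomycin libraries, and bleomycin 1, at 24.9 CPM, then lay within the naive range of 22.4 to 32.8 CPM. Bleomycin 5 held the highest level of 4 of the 11 genes, and bleomycin 2 and bleomycin 3 of 3 each. Sums over these genes get no test.

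Esam encodes an adhesion molecule of endothelial tight junctions and platelets, and is annotated at chr9:37528078-37538319 (GRCm38, plus strand). Per kilobase it averaged 45.3 CPM in vehicle and 17.7 CPM in naive libraries, beside at most 3.50 and 1.22 for the other endothelial markers, so its level stood apart from theirs in both kits. In naive libraries 1 to 4, Esam stood at 44.6, 50.9, 48.6 and 58.4 CPM. In bleomycin libraries 1 to 5 it stood at 76.4, 69.8, 94.4, 89.1 and 92.1 CPM. All bleomycin libraries were above all naive libraries. Esam rose by 0.67 on the log2 scale (SE 0.13, adjusted p 0.00110, edgeR; higher in 5 of 5 libraries), and the call held on leaving out each library in turn (0.000254 to 0.00754). In vehicle libraries 1 to 4 it stood at 133, 125, 120 and 142 CPM and in ISRIB libraries at 119, 139, 133 and 135 CPM. These ranges nearly coincided, and the log2 fold change was 0.00076 (SE 0.06, adjusted p 0.997).

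Cdh5, the VE-cadherin of endothelial junctions, and Vwf, the clotting factor stored in endothelial granules, also rose after bleomycin. Cdh5 (chr8:104101625-104144511, plus strand) stood at 4.86, 4.51, 3.20 and 1.19 CPM in naive libraries 1 to 4. In bleomycin libraries 1 to 5 it stood at 5.40, 9.76, 6.47, 13.3 and 15.3 CPM, and the groups did not overlap. It rose by 1.44 on the log2 scale (SE 0.41, adjusted p 0.0183, edgeR; higher in 5 of 5 libraries). The call was lost without naive 3 (adjusted p 0.0530), naive 4 (0.0675) or bleomycin 5 (0.0555).

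Vwf (chr6:125546774-125686679, plus strand) stood at 2.73, 4.94, 3.78 and 3.58 CPM in naive libraries 1 to 4. In bleomycin libraries 1 to 5 it stood at 3.34, 25.5, 9.63, 7.88 and 22.4 CPM. Bleomycin 2 and bleomycin 5 were highest, and bleomycin 1 lay within the naive range. Vwf rose by 1.78 on the log2 scale (SE 0.46, adjusted p 0.00948, edgeR; above the naive mean in 4 of 5 libraries), and the call held on leaving out each library in turn (0.00105 to 0.0351). With limma-voom in place of edgeR, the adjusted p was 0.0536 for Cdh5 and 0.0998 for Vwf.

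The other endothelial markers did not pass the test after bleomycin. Egfl7, a secreted regulator of vessel formation, stood at 5.16, 5.80, 3.49 and 2.98 CPM in naive and at 4.63, 9.94, 11.1, 9.39 and 7.30 CPM in bleomycin libraries. Bleomycin 1 alone lay within the naive range. Its log2 fold change was 0.87 (SE 0.35, adjusted p 0.0846), with adjusted p 0.0346 without bleomycin 1. Egfl7 overlaps Agpat2 on the opposite strand, so part of its counts could belong to that gene.

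Pecam1, the CD31 adhesion molecule, stood at 3.95, 4.51, 9.02 and 3.88 CPM in naive and at 4.89, 7.32, 6.16, 7.88 and 11.5 CPM in bleomycin libraries. Naive 3 was above 4 of the 5 bleomycin libraries (log2 fold change 0.43, adjusted p 0.435). Kdr, the receptor VEGFR2, stood at 6.37, 7.09, 6.98 and 6.56 CPM in naive and at 3.34, 7.51, 10.6, 3.64 and 21.7 CPM in bleomycin libraries. The naive libraries lay close together while bleomycin libraries fell on both sides of them (log2 fold change 0.41, adjusted p 0.540), and without bleomycin 5 the value was -0.12. Tek, the angiopoietin receptor TIE2, stood at 3.34, 2.15, 2.62 and 2.68 CPM in naive and at 2.57, 3.94, 1.11, 0.61 and 3.39 CPM in bleomycin libraries, with overlapping groups (log2 fold change -0.26, adjusted p 0.776). The junction protein gene Cldn5 was not tested. It stood at 1.52, 0.21, 0.87 and 1.49 CPM in naive and at 0.26, 2.06, 1.11, 0 and 6.11 CPM in bleomycin libraries, highest in bleomycin 5 and without a count in bleomycin 4. Emcn, Ramp2 and Tie1 had 12, 43 and 49 counts over the 9 libraries and were not tested.

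**Figure D5:**
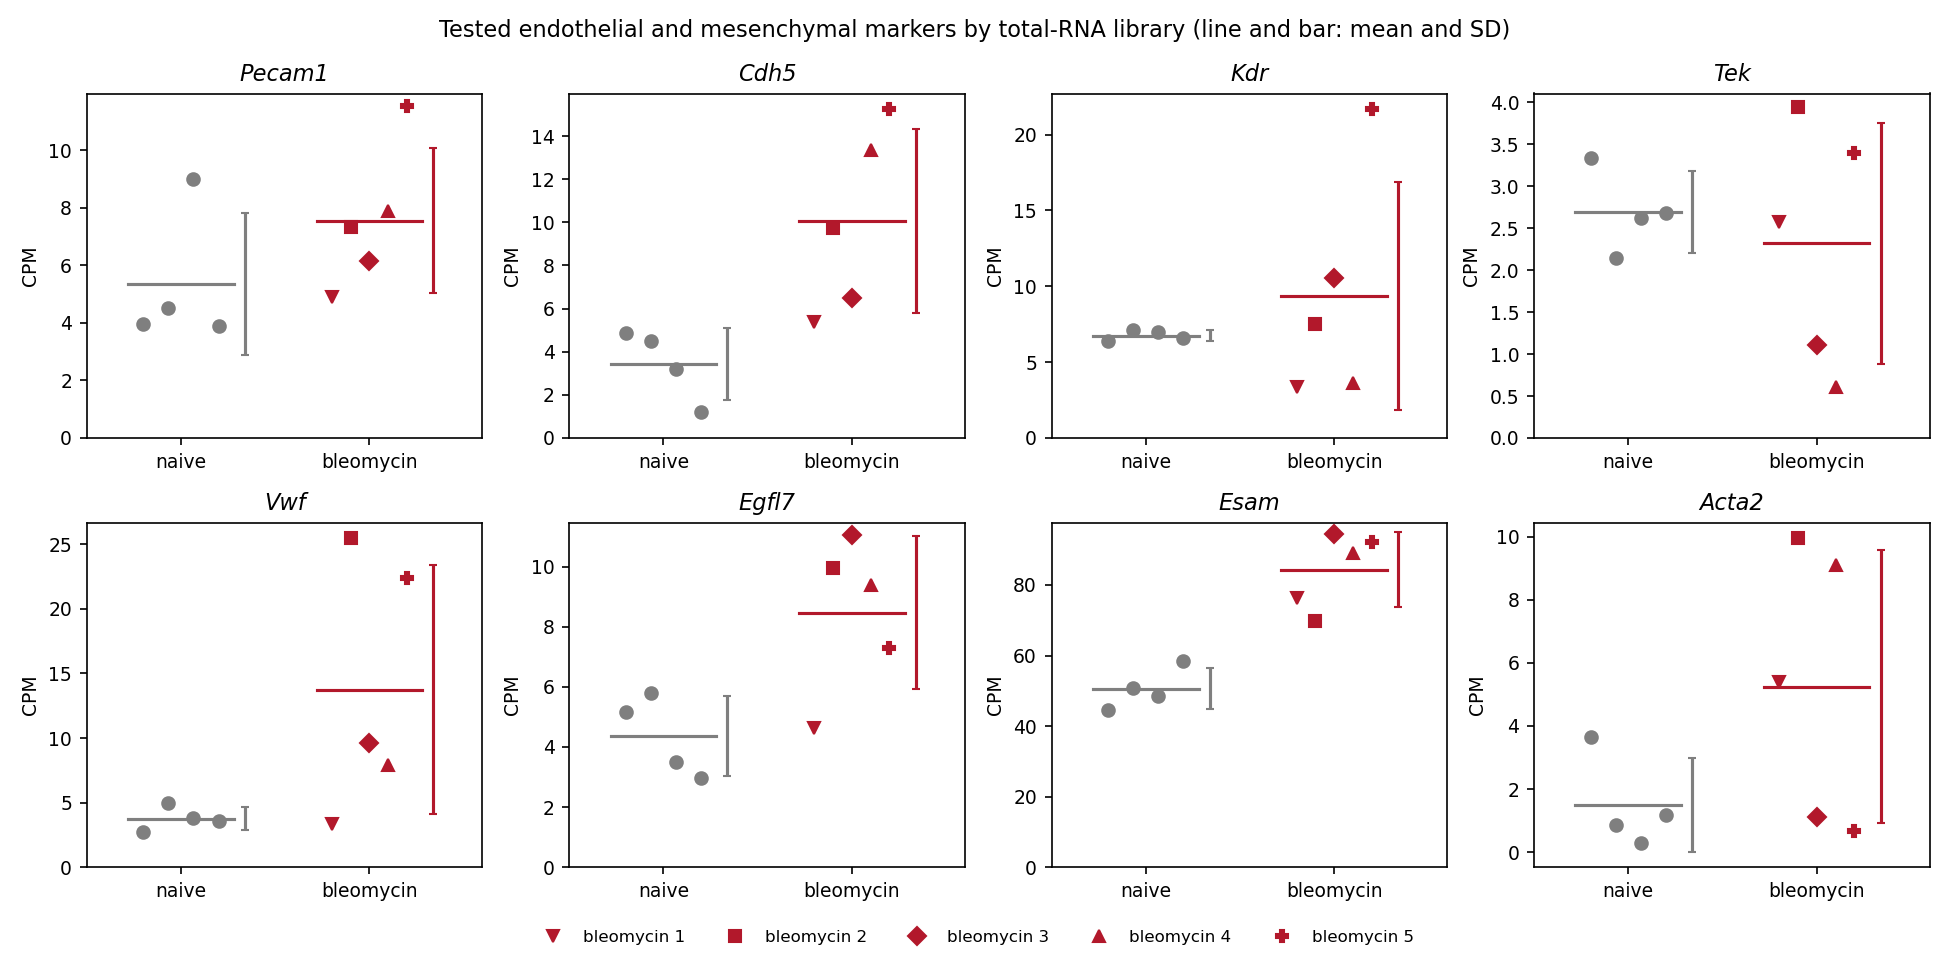
CPM of the 7 tested endothelial markers and of Acta2 in the total-RNA libraries, 1 point per library with group mean and SD (line and bar); symbols identify bleomycin 1 to 5. All bleomycin points lie above all naive points for Esam and Cdh5, while bleomycin 1 lies within the naive range for Vwf, Pecam1 is high in naive 3, and Kdr is high in bleomycin 5.

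After ISRIB, 7 of the 10 tested endothelial markers had a log2 fold change above 0 and 3 below, and none passed the test in edgeR (1 of them, Kdr, had an unadjusted p under 0.05). DESeq2 called none of the 6 for which it gave an adjusted p. Kdr stood at 11.3, 11.2, 8.84 and 7.62 CPM in vehicle and at 8.71, 6.23, 7.61 and 5.65 CPM in ISRIB libraries 1 to 4. Its groups overlapped and its log2 fold change was -0.47 (SE 0.16, adjusted p 0.158). Vwf stood at 14.0, 13.1, 7.28 and 8.58 CPM in vehicle and at 8.58, 16.3, 10.3 and 12.4 CPM in ISRIB libraries. Egfl7 stood at 9.80, 9.33, 7.15 and 8.77 CPM in vehicle and at 8.33, 11.2, 5.84 and 13.9 CPM in ISRIB libraries. The ISRIB libraries reached both above and below the vehicle range of Egfl7, while those of Vwf ran from within that range to above it.

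Cdh5 stood at 10.4, 7.99, 6.76 and 4.96 CPM in vehicle and at 9.47, 7.87, 7.08 and 4.95 CPM in ISRIB libraries. Both groups spanned nearly the same range. Pecam1 stood at 7.42, 5.74, 4.94 and 4.76 CPM in vehicle and at 6.42, 6.64, 6.29 and 6.80 CPM in ISRIB libraries, which lay close together inside the vehicle range. Tek stood at 4.41, 6.28, 5.01 and 3.81 CPM in vehicle and at 5.09, 4.67, 6.02 and 4.86 CPM in ISRIB libraries, and Cldn5 at 5.39, 5.83, 3.58 and 5.05 CPM and at 5.34, 4.92, 4.78 and 6.45 CPM. The groups of these genes overlapped, and the adjusted p of Vwf, Egfl7, Cdh5, Pecam1, Tek and Cldn5 ran from 0.619 to 0.962. Ramp2, a partner of the adrenomedullin receptor, and the receptor tyrosine kinase gene Tie1 averaged 1.83 to 2.34 CPM in either group, with adjusted p of 0.599 and 0.899. Emcn, a sialomucin of venous and capillary endothelium, had 57 counts over the 8 libraries and was not tested.

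Mesenchymal markers were low in both experiments, and none passed the edgeR test (unadjusted p under 0.05 for 0 of 2 tested after ISRIB and 1 of 1, Acta2, after bleomycin). Inmt, a methyltransferase abundant in lung fibroblasts, averaged 1.77 ± 0.50 CPM in vehicle and 1.80 ± 0.70 CPM in ISRIB libraries (n = 4 each). Acta2, the smooth muscle actin of myofibroblasts and muscle, averaged 1.75 ± 0.45 and 1.84 ± 0.71 CPM in the same groups. Both had overlapping groups (adjusted p 0.968 and 0.953, edgeR). The growth factor receptor genes Pdgfra and Pdgfrb, the fibroblast transcription factor gene Tcf21 and the surface antigen gene Thy1 had 62, 28, 18 and 3 counts in the poly(A) set and were not tested. Pdgfra overlaps Gm42802 and Gm42803 on the opposite strand, so part of its counts could belong to those genes.

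In naive libraries 1 to 4, Acta2 stood at 3.64, 0.86, 0.29 and 1.19 CPM. In bleomycin libraries 1 to 5 it stood at 5.40, 9.94, 1.11, 9.09 and 0.68 CPM. Bleomycin 1, 2 and 4 were above every naive library, and bleomycin 3 and 5 lay within the naive range. The log2 fold change was 1.72 (SE 0.79) and did not pass the test (adjusted p 0.132). Inmt had 12 counts in naive libraries and 3 in bleomycin libraries, all 3 in bleomycin 1. That library also held all 8 counts of Thy1 and 14 of the 39 counts of Pdgfrb in the total-RNA set. The mesenchymal sum was 4.26 ± 1.46 CPM in naive (n = 4) and 8.00 ± 4.96 CPM in bleomycin libraries (n = 5). Without Acta2 it was 2.76 ± 0.55 and 2.76 ± 2.77 CPM, so the means of the sum without Acta2 differed by less than the spread between libraries.

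Other genes of the same lineages were taken from wider lists, which also hold genes that AT2 cells can transcribe. After ISRIB none of 13 tested further endothelial genes, 10 mesenchymal, 4 monocyte and general myeloid, 5 alveolar macrophage, 3 mesothelial, 1 neutrophil, 1 lymphocyte and 1 red cell, platelet and mast cell genes passed the test in edgeR (unadjusted p under 0.05 for 1 alveolar macrophage, 1 myeloid and 1 lymphocyte gene). After bleomycin 2 of 4 tested further endothelial genes rose, beside 11.2% of all genes tested: Cd93, a receptor of endothelial and myeloid cells (from 1.20 ± 0.44 to 5.02 ± 2.97 CPM, log2 fold change 1.96, adjusted p 0.0145), and Ptprb, the phosphatase VE-PTP (from 5.03 ± 1.43 to 10.9 ± 3.7 CPM, 1.05, adjusted p 0.0268). The call of Cd93 was lost in 4 alternatives, among them limma-voom (adjusted p 0.0682) and leaving out naive 3 (0.0610) or naive 4 (0.0508). Cd93 was tested in only 5 of the 9 fits that left out 1 library. Its naive mean lay below the 2.57 CPM of the count filter, so it was tested through the bleomycin libraries and the count of rises carries that selection. The call of Ptprb was lost without naive 1 (0.0607), naive 2 (0.101), naive 4 (0.0652) or bleomycin 5 (0.0814).

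Only 7 of 20 further mesenchymal genes were tested. Of these 7, 5 rose after bleomycin and none was called lower, beside 11.2% of all genes tested called higher and 9.31% called lower. The naive means of Mgp (0.28 CPM), Col1a2 (1.19 CPM) and Col1a1 (1.28 CPM) lay below the 2.57 CPM of the count filter. These genes entered the test mainly through the bleomycin libraries, so the count of rises carries that selection. Col1a1 and Col3a1, fibrillar collagen genes, rose by 3.89 (adjusted p 0.00112) and 2.35 (0.00124) on the log2 scale. Col1a1 averaged 1.28 ± 1.10 CPM in naive and 20.5 ± 20.7 CPM in bleomycin libraries, with the most, 54.4 CPM, in bleomycin 2. Its log2 fold change was 3.13 without bleomycin 2 and 4.50 without naive 1, and the call was lost with limma-voom (adjusted p 0.144). Mgp, an inhibitor of calcification, rose by 4.54 (adjusted p 0.000182), and Npnt, a basement membrane protein gene, rose from 116 ± 16.1 to 295 ± 50.3 CPM (log2 fold change 1.28, adjusted p 3.82e-06). The fifth was Col1a2, a collagen gene named after its values were seen (log2 fold change 2.72, adjusted p 0.0334). Its call was lost with DESeq2 (adjusted p 0.126), with limma-voom (0.28) and without any 1 naive library (0.0589 to 0.101), and it was not tested without bleomycin 1, 2, 3 or 5. Cthrc1, likewise named after its values were seen, lay the other way, at 9.76 ± 0.35 CPM in naive (n = 4) and 6.13 ± 2.32 CPM in bleomycin libraries (n = 5). All bleomycin libraries were below all naive libraries for Cthrc1, but its log2 fold change of -0.72 did not pass the test (adjusted p 0.112).

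Of 5 tested further myeloid genes, 2 rose after bleomycin and 1 fell, beside 11.2% of all genes tested called higher and 9.31% called lower. Cd14, a coreceptor for bacterial lipopolysaccharide, rose from 13.8 ± 3.3 to 48.6 ± 9.7 CPM (log2 fold change 1.76, adjusted p 1.06e-05). Fn1, fibronectin, rose by 4.72 on the log2 scale (adjusted p 0.000140), from 2.25 ± 0.79 CPM in naive to 61.2 ± 67.7 CPM in bleomycin libraries. Bleomycin 2 held the highest level, 178 CPM, and without it the log2 fold change was 3.81. The Fn1 call was lost with limma-voom (adjusted p 0.0652), and the naive mean of Fn1 lay below the 2.57 CPM of the count filter. Spi1, which encodes PU.1, fell by 2.59 (adjusted p 0.0376), a call lost with DESeq2 (0.111), with limma-voom (0.0689) and without naive 1 (0.364), naive 3 (0.0590) or bleomycin 1, 3, 4 or 5 (0.0615 to 0.0780). Spi1 averaged 6.88 ± 7.91 CPM in naive (n = 4) and 1.14 ± 1.81 CPM in bleomycin libraries (n = 5). The log2 fold change of Spi1 was -1.34 without naive 1. The bleomycin mean of Spi1 lay below the 2.57 CPM of the count filter, so the count of falls carries that selection. Spi1 was tested in only 8 of the 9 fits that left out 1 library. Msln, a mesothelial surface protein gene, rose by 3.01 (adjusted p 0.0114), on 11 counts in naive and 147 in bleomycin libraries. Bleomycin 1, with 1 count (0.257 CPM), lay below every naive library. Naive 1, naive 3 and naive 4 also held 1 count each (0.303, 0.291 and 0.298 CPM). The naive mean of 0.65 CPM lay below the 2.57 CPM of the count filter. The log2 fold change of Msln was 4.18 without naive 2, and the call was lost with limma-voom (adjusted p 0.106). The gene was not tested without bleomycin 2, 3, 4 or 5. None of 3 tested alveolar macrophage genes and 1 lymphocyte gene passed the test (0 with an unadjusted p under 0.05), and no neutrophil, red cell, platelet or mast cell gene was tested.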

How the data were processed

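AT2 cell RNA was sequenced in 17 libraries. The authors deposited raw counts of reads for each gene and library, 1 table per kit; a whole-number table with unequal library sums was taken as raw. The submitters' processing notes name bcl2fastq 2.19.1, FastQC, Trimmomatic 0.36, STAR 2.6.0, HTSeq 0.11.2 and the build mm10. No source used here gives the annotation or strand setting. Gene symbols, lengths and positions came from GENCODE M21 (GRCm38) by gene ID, and 42546 of 43430 IDs had a symbol.

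Groups follow the treatment and condition labels. Within each kit, edgeR 4.0.16 (R 4.3.3) ran a two-sided quasi-likelihood test on the counts by group, after filterByExpr (at least 10 counts, total at least 15) and TMM scaling. Benjamini-Hochberg adjustment covered every gene tested, and a gene was called under 0.05. Each SE is the unshrunken log2 fold change over the square root of F. CPM use raw library totals. Similarity of replicates was a chi-square test of their counts over genes.

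The 35 members and all gene lists were chosen with earlier results of these data known. Members called in either comparison, or with a group mean of at least 5 CPM, are described by library. Of the further lists, up to 4 called genes per list and comparison are named, those with the lowest p, with close paralogs beside their member. The further list of AT2 identity genes served to check the label: 12 of 12 were tested in each comparison, with Etv5 called lower in both and Sftpd and Napsa called higher after bleomycin. Beside these, 1.1% of all genes tested were called lower after ISRIB. After bleomycin, 11.2% of all genes tested were called higher and 9.31% lower. On leaving out each library, the bleomycin call held in 6 of 9 fits for Etv5, 8 of 9 for Sftpd and 1 of 9 for Napsa (adjusted p up to 0.144). Promoters came from RefSeq (GRCm38.p6). Alternatives were DESeq2 1.42.0, limma-voom (limma 3.58.1), median-ratio size factors, no count filter, a replicate block, leaving out each library and other totals or member sets for the sums. The procedure was tested on simulated data. Intervals and limits from counts cover counting error only.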

Additional observations from a re-analysis of the deposited data

Results flagged for a closer look

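Dixon's test at the 95% level was run on 73 groups of 4 or 5 libraries and marked 3 of them. For normally spread values, chance marks about 1 group in 20. That rate does not hold for sums near 0. A group with counts in only 1 library is marked whatever the count, as in the lymphocyte marks below. Pecam1 stood at 9.02 CPM in naive 3, far from the 3.88 to 4.51 CPM of the other naive libraries. The lymphocyte sum was 0.0650 CPM in vehicle 3, from 1 count of Cd79a, and 0 in the other vehicle libraries. The lymphocyte sum without Cd79a was 0.509 CPM in bleomycin 5, from 3 counts of Cd3e, and 0 in the other bleomycin libraries.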

How the results depend on the processing

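The number of genes called after ISRIB (265) was 408 with DESeq2, 648 with no count filter and 86 to 269 on leaving out each library (86 without vehicle 1, 102 without vehicle 2, 159 without ISRIB 4). The 1 marker called became 0 with DESeq2, which gave Chil3 no adjusted p, 3 with no count filter (Lyz1, Chil3 and Kdr) and 0 to 1 on leaving out each library. After bleomycin the 4 markers called became 2 with limma-voom (Lyz1 and Esam) and 2 to 5 on leaving out each library, while all genes called (2304) ran from 1554 to 2584. Lyz1 after bleomycin had an adjusted p of 0.0899 with DESeq2. The cause of these changes was not tested. Without Lyz1 the log2 ratio of the macrophage sum became -0.11 in place of 0.46 after ISRIB and 0.060 in place of -0.67 after bleomycin, since that gene supplies nearly all of the sum.

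Of markers that were not called, Esam after ISRIB changed sign with no count filter (-0.0011). On leaving out each library, log2 fold changes after ISRIB ran on both sides of 0 for Csf1r (-0.22 to 0.035), Cdh5 (-0.20 to 0.15), Tek (-0.032 to 0.20), Cldn5 (-0.030 to 0.20), Vwf (-0.050 to 0.28), Egfl7 (-0.050 to 0.32), Esam (-0.035 to 0.048), Tie1 (-0.26 to 0.23), Inmt (-0.29 to 0.20) and Acta2 (-0.21 to 0.21), and after bleomycin for Kdr (-0.12 to 0.61). For single genes, 517 of the recomputed values kept their direction and side of the threshold, 75 lost a call, 8 gained one and 24 changed sign.

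Replicate numbers are shared between groups. Deviations of same-numbered libraries correlated at -0.12 to 0.08 in the ISRIB set and -0.04 to 0.05 in the bleomycin set. Values from so few libraries cannot exclude a pairing by number, and the main test did not pair libraries. With a replicate block, 277 genes and 0 markers were called after ISRIB (Chil3 adjusted p 0.0705), and 2187 genes and 4 markers after bleomycin, with Cdh5 lost (0.0653), Acta2 gained (0.0304) and Kdr at -0.25. Low counts kept 19 markers after ISRIB and 24 after bleomycin out of any test.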
